A study of Mus musculus with 61 samples.

Results

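Mcm2, Mcm3, Top2a, Aurkb and Trp53 are 5 genes of DNA replication, cell division and growth arrest, out of 5154 gene symbols in a deposited table of mouse embryonic stem (ES) cell enhancers and promoters. They were taken by symbol. With them came 5 promoters of 5513 and 22 enhancers of 14265, each with a Sono-seq value per condition, and the 42 Sox2 positions, of 52888 in 3 lists, within 50 kb of their start sites. The genes were chosen by function and on the Sox2 positions near them, so the counts and distances of these positions are a description, without a test.

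The cells were fibroblasts of embryonic day 13.5 (strain Black6-129X1/SvJ) on their way to pluripotency. Every group carried Col1a1::tetOP-OKSM, a doxycycline-driven cassette of Oct4, Klf4, Sox2 and Myc, and R26-M2rtTA, the activator that answers to doxycycline. All were sampled on day 3 of doxycycline at 2 ug/ml, in serum and LIF medium with ascorbate. For Sox2, 1 immunoprecipitate and 1 input library were made per hairpin, namely Renilla (a control against a luciferase) and Chaf1a.166 and Chaf1a.2122, which target the large subunit of the histone chaperone CAF-1. For Sono-seq, which sequences sonicated, cross-linked DNA and is richer in accessible regions, 3 libraries labelled CAF-1 knockdown and 3 Renilla libraries were deposited as 1 value per condition and region. Neither readout has replicate values, so no difference between conditions was tested. The lists hold 17681 (Renilla), 15888 (Chaf1a.166) and 19319 (Chaf1a.2122) positions on mm9, and values given in threes below follow this order of hairpins. Expression is not in the files used here, so neither the knockdown nor the fibroblast label was checked against genes. In chromatin from a whole culture, fewer cells with a bound or open region and weaker signal per cell cannot be told apart.

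The MCM helicase, a ring that includes Mcm2 and Mcm3, is loaded on replication origins in G1 phase and unwinds DNA in S phase. Top2a encodes topoisomerase II alpha, which untangles and helps condense chromosomes, and Aurkb encodes Aurora B, the kinase of the chromosomal passenger complex that corrects faulty spindle attachments. Trp53 encodes p53, a transcription factor that arrests damaged cells and is a known barrier to reprogramming of fibroblasts. CAF-1 works beside the MCM helicase in time, since it places histones on newly replicated DNA.

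Mcm3 and Top2a had a Sox2 position called at the start site in the control list and in both knockdown lists. Within 500 bp of their start sites lay a position of each of the 3 lists, which holds for 4.17% of all promoters in the table (13.0% had a position of any list there). Trp53 had its shared site just downstream of the start, Aurkb had both of its shared sites several kb away on the lower-coordinate side, and Mcm2 had its own far upstream. Neighbouring positions were joined into sites at gaps of up to 200 bp. Of the 20 sites, 8 were held by all 3 lists, 6 by a pair and 6 by a single list. Over the whole series, 11004 of 25432 such sites (43.3%) were held by all 3 lists, a share close to that of the 20. Each of the 5 genes had at least 1 site of all 3 lists, as did 51.4% of genes in the table. The numbers were 14 positions for Renilla (95% Poisson interval 7.65 to 23.5), 13 for Chaf1a.166 (6.92 to 22.2) and 15 for Chaf1a.2122 (8.40 to 24.7). These intervals cover counting error only, and the hairpins are not compared by them, since the genes were chosen on these positions and each list has its own threshold. All 5 genes had a position of every list within 50 kb, where the share of genes with one was 66.5%, 65.8% and 70.5%, and 55.9% for each of the 3 lists. Within 10 kb, 4, 5 and 4 of the 5 had one, beside 29.3%, 28.5% and 33.4% of all genes. When positions were kept only if the lower bound of enrichment reached 2, the site far upstream of Mcm2 was the 1 site of the 8 that all 3 lists still held.

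**Figure D1:**
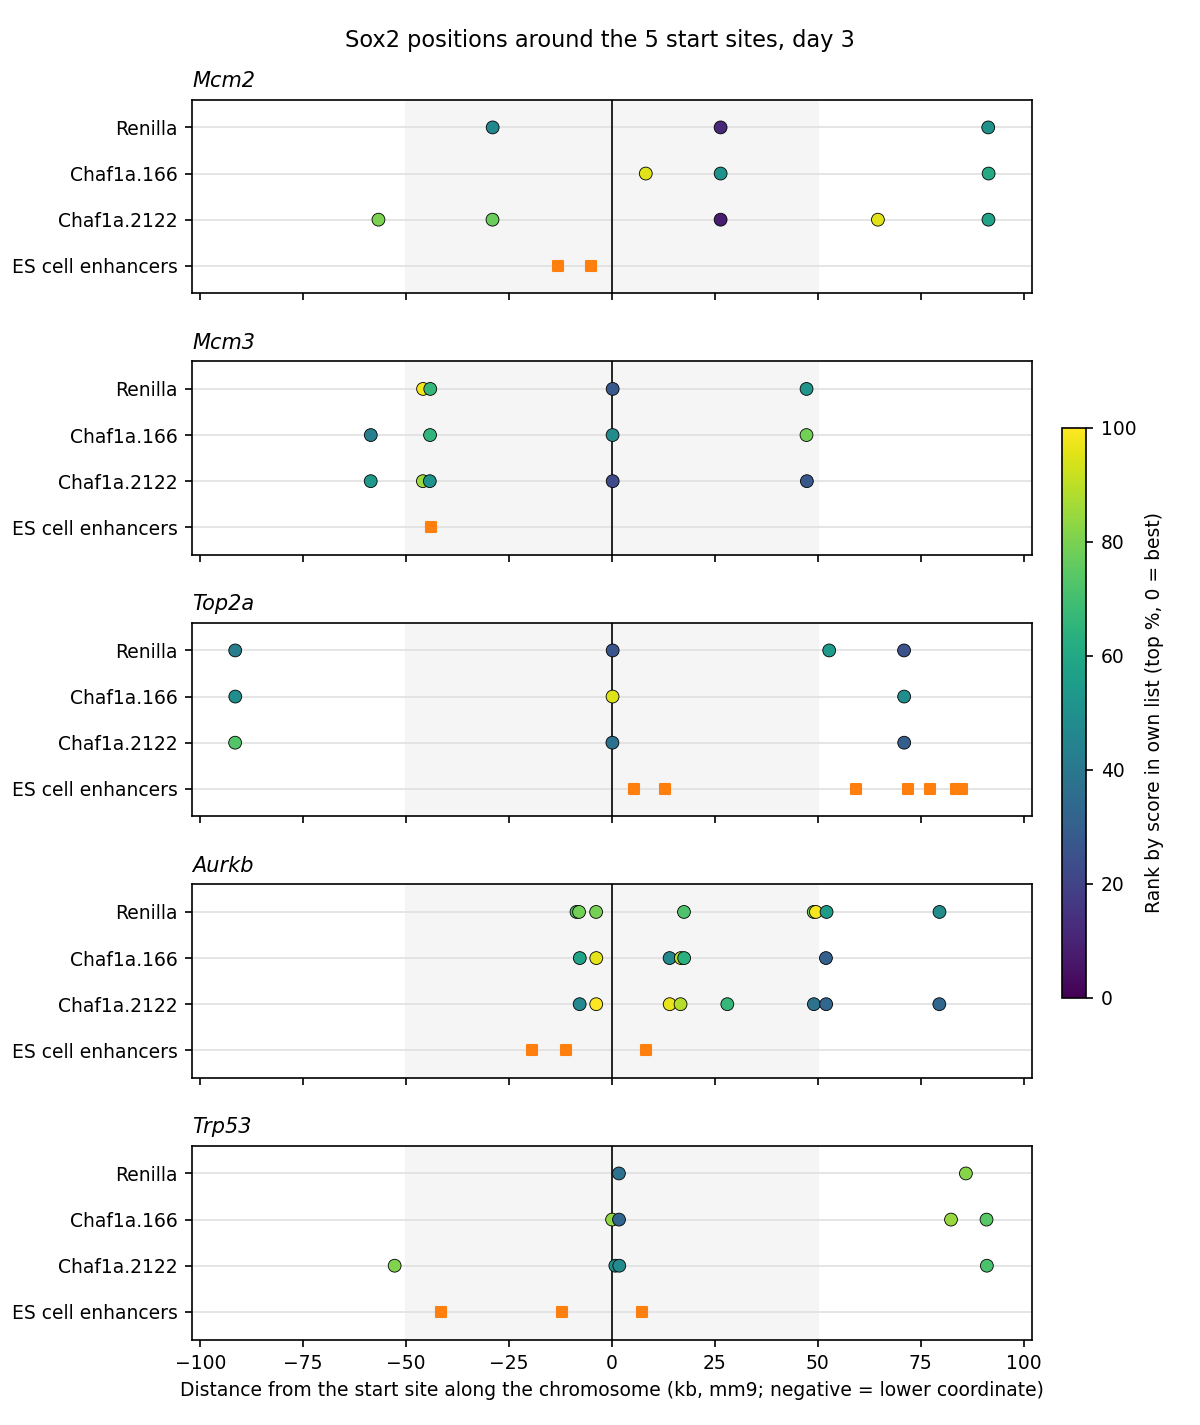
Sox2 positions within 100 kb of each start site, in kb along the chromosome, 1 row per hairpin, coloured by rank by score in their own list, with ES cell enhancers assigned to the gene as squares and the 50 kb window shaded. Mcm3 and Top2a have a circle at 0 in every row, Aurkb has the most circles (17 within the window), and the Mcm2 site at 26 kb has a circle in every row.

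At Mcm3, on chromosome 1 with its start site at 20810294, the promoter site held positions at 20810454 (Renilla), 20810431 (Chaf1a.166) and 20810459 (Chaf1a.2122). They lay 160, 137 and 165 bp upstream of the start, all within 28 bp of each other. By the authors' score they ranked 4859 of 17681, 7642 of 15888 and 4354 of 19319 within their own lists. The authors' enrichment of immunoprecipitate over input was 3.85, 5.71 and 10.6, beside list medians of 8.23, 8.37 and 7.46. So the site ranked above the median of each list by score, while its enrichment was above the list's median in Chaf1a.2122 alone.

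The sequences below show the stretches where Sox2 lay close to a start site in every list, the 250 bases before the starts of Mcm3 and Top2a. They come from RefSeq on build GRCm38.p6, on the minus strand of chr1:20820313-20820562 and chr11:99024190-99024439, and are written 5′ to 3′ up to the base before the start. The Sox2 distances were measured on mm9, so they fall in these stretches if both builds use the same start. Capitals mark CCAAT (the box of the factor NF-Y), TTTGAA (the cell cycle homology region of mitotic genes) and AACAAT (core letters of a SOX site) on either strand, and no matches overlap each other.
Mcm3: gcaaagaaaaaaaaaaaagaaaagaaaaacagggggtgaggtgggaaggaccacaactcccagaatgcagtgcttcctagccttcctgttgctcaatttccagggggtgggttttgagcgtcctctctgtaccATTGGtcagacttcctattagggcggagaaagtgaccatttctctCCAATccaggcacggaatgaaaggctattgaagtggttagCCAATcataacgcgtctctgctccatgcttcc
Top2a: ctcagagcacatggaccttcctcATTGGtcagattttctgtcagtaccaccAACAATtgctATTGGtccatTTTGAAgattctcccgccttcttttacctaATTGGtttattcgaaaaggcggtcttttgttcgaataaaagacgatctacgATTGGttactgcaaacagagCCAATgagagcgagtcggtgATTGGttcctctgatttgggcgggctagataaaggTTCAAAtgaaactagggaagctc

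The Mcm3 stretch has 3 CCAAT boxes, at 117 to 113, 72 to 68 and 32 to 28 bases before the start, as do 2.79% of 32851 promoter windows of this length with 3 or more. The Top2a stretch has 6, spread from 227 to 54 bases before the start, and 0.213% of windows have 5 or more. It also has TTTGAA at 179 to 174 and, in reverse, at 23 to 18, which 16% of windows hold at least once. AACAAT stands at 199 to 194 in Top2a, as in 9.42% of windows. The longer SOX string CATTGTT (in 3.29% of windows), the octamer ATGCAAAT of Oct4 (1.60%) and the E2F-like strings TTTGGCGC, TTTCCCGC, TTTCGCGC and TTTGCCGC (together 1.86%) were not found in either stretch. A match describes letters and not a bound site. AACAAT and the counts of several boxes were chosen after the sequences were seen.

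Mcm3 had 3 more sites within 50 kb. One, 44140, 44189 and 44250 bp away on the downstream side, lay at the single ES cell enhancer assigned to Mcm3. That enhancer, at 20766400, was 246, 295 and 356 bp from the positions, and it was the 1 enhancer of the 22 with a Sox2 position within 500 bp, against 4.78% of all enhancers. Positions of each of the 3 lists were within 500 bp at 2.22% of all enhancers. On the upstream side a further site of all 3 lists lay 47248, 47234 and 47327 bp away. A pair of positions of Renilla and Chaf1a.2122, 45882 and 45928 bp downstream, was of another kind. Its enrichment was 1.15 in Renilla and 0.341 in Chaf1a.2122, the lowest of any Chaf1a.2122 position, and estimates below 1 were found at 18 positions (0.0932%) of that list. Scores of 13.5 and 13.9 put the pair near the floor of both lists (13.3 and 12.4).

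Mcm2, on chromosome 6 with its start at 88848774, had no Sox2 position at its promoter. Its shared site lay upstream, 26373, 26381 and 26377 bp from the start, at 88875147, 88875155 and 88875151. These positions fell within 8 bp, the tightest of the 8 shared sites, whose spans had a median of 75 bp and reached 170 bp. They ranked 2069 of 17681, 8066 of 15888 and 1493 of 19319, and enrichment was 13.9, 10.9 and 15.8, above the median of each list. In Renilla and Chaf1a.2122 they were the best-scored of all positions near the 5 genes. A second site, 28984 bp (Renilla) and 29023 bp (Chaf1a.2122) downstream, was missing from the Chaf1a.166 list. The Chaf1a.166 list alone held a position closer to the gene, 8205 bp upstream, with an enrichment of 2.18 and a score of 15.3 near the floor of 14.8. The Sox2 position nearest to either ES cell enhancer of Mcm2 was 13279 bp away.

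The 250 bases before the Mcm2 start (RefSeq, GRCm38.p6, minus strand of chr6:88898781-88899030) are shown beside the others because no list held a position there. Capitals mark the same letters.
Mcm2: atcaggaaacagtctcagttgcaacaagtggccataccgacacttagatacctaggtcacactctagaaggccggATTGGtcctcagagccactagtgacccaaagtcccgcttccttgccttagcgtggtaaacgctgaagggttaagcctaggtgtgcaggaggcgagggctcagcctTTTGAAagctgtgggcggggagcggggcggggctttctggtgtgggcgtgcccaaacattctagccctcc
It holds 1 CCAAT, 175 to 171 bases before the start (33.8% of windows hold at least 1), and 1 TTTGAA at 70 to 65. Its G and C content was 56.8%, against 48.0% for Mcm3, 43.6% for Top2a and a median of 52.4% over all windows.

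Top2a, on chromosome 11 with its start at 98885503, had a single site within 50 kb, the one at its promoter. Positions were at 98885663 (Renilla), 98885636 (Chaf1a.166) and 98885602 (Chaf1a.2122), 160, 133 and 99 bp upstream. Score and enrichment did not go together here. In Renilla the position was in the best 26.3% by score with an enrichment of 2.93, and 6.74% of its list had a lower one. In Chaf1a.166 it ranked 15036 of 15888 by score with an enrichment of 33.1, above 90.8% of that list. Chaf1a.2122 lay between, in the best 37.6% by score with an enrichment of 5.41. Beyond the window, sites of all 3 lists stood 70925, 70951 and 70962 bp upstream, near a Top2a enhancer 935 to 972 bp further on, and 91504, 91487 and 91529 bp downstream. A Renilla position without a partner lay 52753 bp upstream.

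Aurkb, on chromosome 11 with its start at 68859144, was the gene of the 5 with the most Sox2 positions around it. It had 6 positions for Renilla, 5 for Chaf1a.166 and 6 for Chaf1a.2122 within 50 kb, where the median gene of the table had 1 in each list. Fewer were found at 98.2%, 96.4% and 97.1% of genes. Many of these positions were weak by score. The best of them by score stood in the top 71.5%, 46.9% and 37.9% of their lists, and no Renilla lower bound of enrichment exceeded 1.96. The starts of Pfas (37182 bp away) and 1500010J02Rik (29732 bp) also lie within 50 kb, so the positions are not assigned to Aurkb alone. Its 17 positions formed 9 sites, 2 of them in all 3 lists, 4 in a pair of lists and 3 in 1 list. The strand of Aurkb was not used here, so sides are given by coordinate. The nearest shared site was 3856, 3813 and 3830 bp below the start site, and the next 7998, 7828 and 7857 bp below it. The nearest ranked 13972 of 17681, 15234 of 15888 and 19277 of 19319 by score. So with lists of equal length the Chaf1a.2122 position drops out and 1 shared site is left, and joining within 100 bp also leaves 1. The enrichment of the nearest site was 3.44, 28.5 and 17.4, above 9.77%, 88.1% and 78.4% of the 3 lists. Here too, score and enrichment did not go together in the knockdown lists. The next site ranked 13940, 9222 and 9119 in the same lists, above the median by score in Chaf1a.2122 only.

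On the higher side, Aurkb had sites of both knockdown lists without Renilla at 13990 and 14008 bp and at 16713 and 16648 bp (Chaf1a.166 and Chaf1a.2122). These were the 2 sites of that kind among the 20. The share of such sites over the whole series is not given here, so their number is a description only. The first had an enrichment of 7.99 and 7.85. A Renilla position did lie under 1000 bp beyond the second, at 17476 bp, and was shared with Chaf1a.166 at 17521 bp. Joined within 1000 bp, the sites at 16.6 to 17.5 kb merge into 1 held by all 3 lists. Renilla alone held positions 8621 bp below and 49523 bp above the start, and Chaf1a.2122 alone one at 28006 bp. That Renilla position at 49523 bp was the last inside the 50 kb limit, and the first outside it was the Chaf1a.166 position at 51957 bp, also of Aurkb, which has partners at 52015 and 52103 bp in Chaf1a.2122 and Renilla.

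Trp53, on chromosome 11 with its start at 69393860, had 1 shared site, downstream of the start at 1681, 1703 and 1770 bp. Its positions were 69395541, 69395563 and 69395630, in the best 37.2%, 32.2% and 47.6% of their lists by score, with enrichments of 9.85, 7.53 and 4.53. Each knockdown list held 1 more position at a place of its own, 19 bp downstream of the start in Chaf1a.166 and 811 bp in Chaf1a.2122. Their ranks were 13266 of 15888 and 9556 of 19319. No Renilla position was closer than 1681 bp. Wrap53, which encodes a protein of telomerase RNA trafficking and overlaps Trp53 in antisense, starts 1034 bp away, so the same positions lie 2715, 1053 and 1845 bp from its start. The windows do not tell these genes apart.

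The stretch before the Trp53 start (RefSeq, GRCm38.p6, plus strand of chr11:69580109-69580358) is shown because the shared site lies past it and not in it.
Trp53: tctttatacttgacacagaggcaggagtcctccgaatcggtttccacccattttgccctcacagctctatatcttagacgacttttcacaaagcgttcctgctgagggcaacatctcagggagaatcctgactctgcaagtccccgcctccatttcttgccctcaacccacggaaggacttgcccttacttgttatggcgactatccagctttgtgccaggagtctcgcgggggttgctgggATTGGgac
It has 1 CCAAT in reverse, at 8 to 4 bases before the start, and none of the other strings.

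Sono-seq gave each region 1 value for CAF-1 knockdown and 1 for Renilla, in a unit that is not stated. Promoters of 4 of the 5 genes were nearly alike in both conditions, and that of Mcm2 was lower with CAF-1 knockdown. The Mcm2 promoter had 0.138 in CAF-1 and 0.173 in Renilla, a log2 ratio of -0.33. Its Renilla value exceeded that of 86.7% of promoters, while its CAF-1 value exceeded 45.1%. Of all promoters, 8.54% had a lower ratio, and 8.98% were lower by 1.25-fold or more, the size used here to count regions. The promoter values were 0.144 and 0.146 for Mcm3, 0.139 and 0.137 for Top2a, 0.152 and 0.158 for Aurkb, and 0.131 and 0.133 for Trp53 (CAF-1 first). Their log2 ratios ran from -0.059 (Aurkb) to 0.014 (Top2a), with Mcm3 at -0.019 and Trp53 at -0.016. The order of levels was Aurkb, Mcm3, Top2a, Mcm2, Trp53 in CAF-1 and Mcm2, Aurkb, Mcm3, Top2a, Trp53 in Renilla, and with 1 value each no spread can be set against it. The median of the 5 ratios was -0.019, beside -0.0093 over all 5513 promoters (SD 0.23), and 1 of 5 was higher in CAF-1 where 48.2% of all promoters were. None of the 5 was higher by 1.25-fold or more, as 6.68% of all promoters were.

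**Figure D2:**
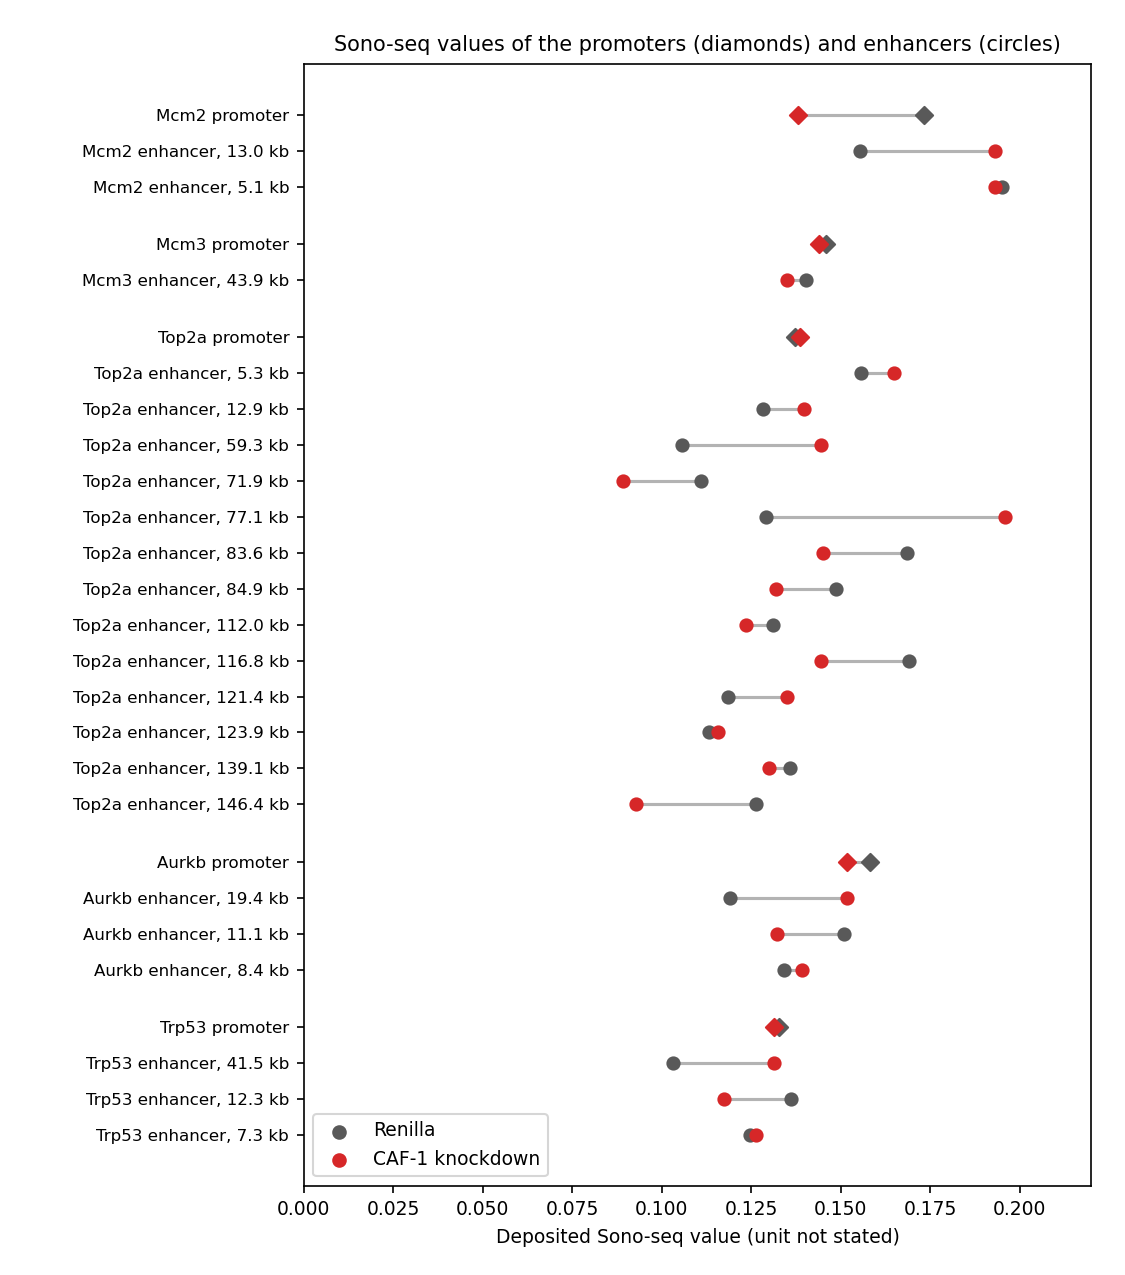
Deposited Sono-seq values (unit not stated) in Renilla (grey) and CAF-1 knockdown (red) for each promoter (diamonds) and enhancer (circles) of the 5 genes, with the enhancer's distance from the start site. The Mcm2 promoter falls from 0.173 in Renilla to 0.138, the other 4 promoters nearly coincide, and the Top2a enhancers move in both directions.

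The 22 enhancers went both ways, 11 higher and 11 lower with CAF-1 knockdown. Their median log2 ratio was 0.0031, beside 0.028 over all 14265 enhancers, of which 55.3% were higher. Its sign has no weight, since scaling both conditions to the same median gave -0.016. With CAF-1 knockdown, 4 of 22 were higher by 1.25-fold or more, against 10.3% of all enhancers, and 1 was lower by as much, against 6.58%. The 2 enhancers of Mcm2 were among the highest of the 22 by value in CAF-1, and the nearer one was also in Renilla. The one 5074 bp downstream had 0.193 in CAF-1 and 0.195 in Renilla, above 95.7% and 97.9% of all enhancers. The other, 13024 bp downstream, had 0.193 and 0.155, above 95.7% and 75.3% of all enhancers. Its log2 ratio was 0.31, opposite in sign to the promoter. The Mcm3 enhancer that lies at a Sox2 site had 0.135 and 0.140, a ratio of -0.056.

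Top2a had 13 enhancers, more than 94.5% of genes (the median gene had 3), all on its upstream side between 5347 and 146397 bp. Their CAF-1 values ran from 0.0893 to 0.196 and their Renilla values from 0.106 to 0.169. The highest ratio was at 77147 bp, with 0.196 in CAF-1 and 0.129 in Renilla (0.60 on the log2 scale, above 99.4% of enhancers). At 59297 bp the values were 0.145 and 0.106 (0.45), and at the far end, at 146397 bp, 0.0929 and 0.126 (-0.44, with 2.25% of enhancers lower). Higher and lower ratios were interspersed along the region. The enhancer at 71897 bp, which has the shared Sox2 site 935 to 972 bp away, had 0.0893 and 0.111 (-0.31), between the 2 highest. Its 13 ratios had a median of -0.063 and an SD of 0.30, and among the 466 genes with 10 or more enhancers 95.1% had a smaller SD (median 0.22, quartiles 0.19 and 0.25). Regions of 1 gene are no replicates of a condition, so this spread is between places, and how much of it libraries would share was not tested.

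The enhancers of Aurkb and Trp53 are not theirs alone. Each of the 6 is assigned to other genes too, as are 29.7% of all enhancers, among them Pfas (all 3 of Aurkb) and Wrap53 (all 3 of Trp53). For Aurkb the values were 0.152 and 0.119 at 19444 bp below the start (0.35), 0.132 and 0.151 at 11144 bp below (-0.19), and 0.139 and 0.134 at 8356 bp above (0.053). For Trp53 they were 0.131 and 0.103 at 41460 bp upstream (0.35), 0.117 and 0.136 at 12260 bp upstream (-0.22), and 0.126 and 0.125 at 7340 bp downstream (0.022). In both genes the enhancer farthest from the start was the one 1.25-fold or more higher with CAF-1 knockdown.

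**Figure D3:**
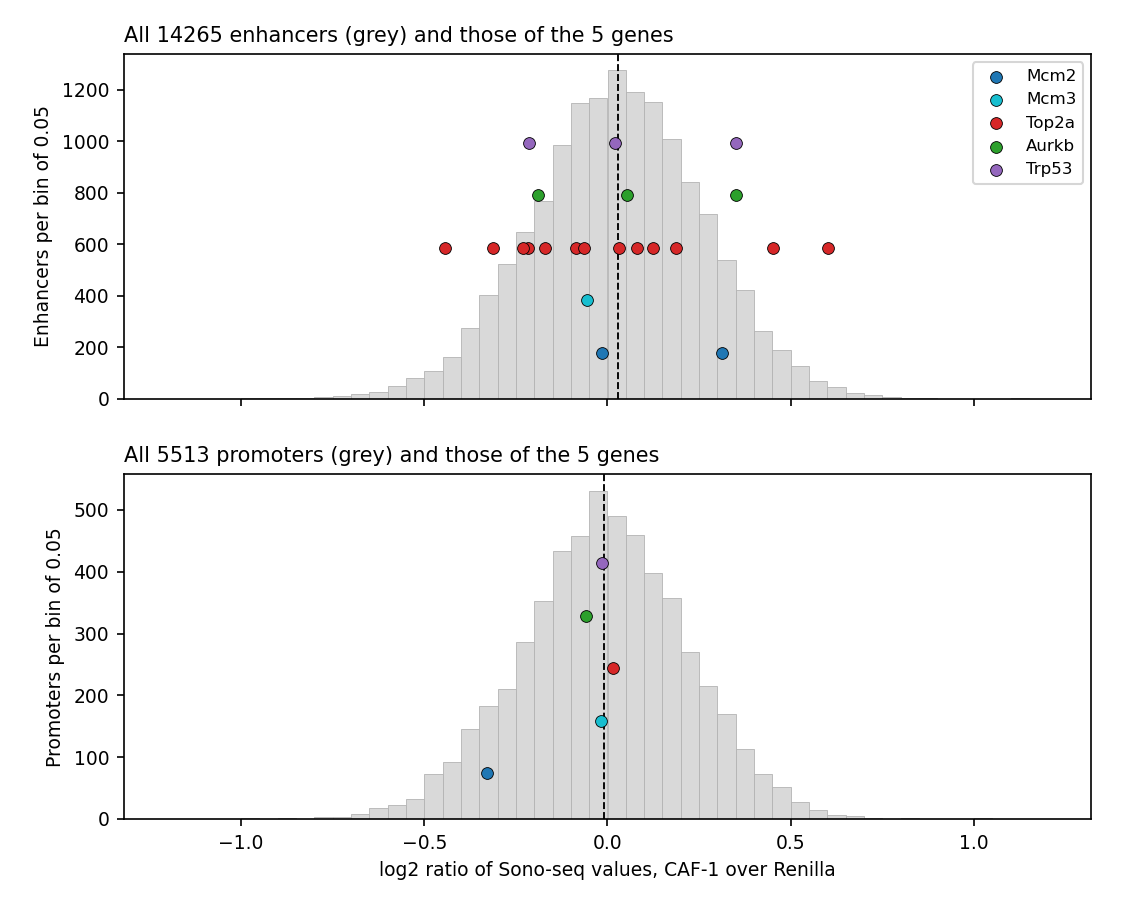
log2 ratios of Sono-seq values, CAF-1 over Renilla, for the enhancers (top) and promoters (bottom) of the 5 genes as coloured points at arbitrary heights over histograms of all regions, with dashed medians. The Mcm2 promoter at -0.33 stands to the left of the other 4, and Top2a enhancers reach from -0.44 to 0.60.

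Other genes of these processes were taken from 3 lists, of which the table holds 34 replication genes, 50 mitosis genes and 29 of p53 and the G1 checkpoint. Without the 5 genes, positions of each of the 3 lists lay within 10 kb of 4 of 31 replication genes (12.9%), 11 of 49 mitosis genes (22.4%) and 10 of 28 p53 and checkpoint genes (35.7%), beside 20.8% of all genes. Wrap53 is 1 of these 10, through the very positions that were counted for Trp53. Within 50 kb the shares were 41.9%, 53.1% and 57.1%, beside 55.9%. By this measure the replication genes were below the table's share at both distances. For Chaf1a.2122 alone, 11 of 31 (35.5%) had a position within 10 kb, above the 33.4% of all genes. By the measure of all 3 lists, the p53 list was above the table's share at 10 kb and close to it at 50 kb. No test was made, because the lists were chosen with results of these data known.

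Positions of all 3 lists lay within 500 bp of a start at 4.17% of all promoters, a share of promoters and not of genes. They did so at 2 of 34 replication genes, 3 of 50 mitosis genes and 2 of 29 p53 and checkpoint genes. The 2 replication genes were Mcm3 and Top2a, both chosen on the Sox2 positions near them. The others within 10 kb were Dbf4 (1073 bp in Renilla), the activator of the origin-firing kinase, Orc6l (2567 bp), a subunit of the origin recognition complex, Top1 (2768 bp), and Fen1 (4956 bp), the nuclease of Okazaki fragments. The helicase subunit Mcm5 had its nearest positions 19825, 19799 and 19858 bp away (Renilla, Chaf1a.166, Chaf1a.2122). Of the mitosis list, Ncapd2 and Ncaph, both of condensin, had Renilla positions at 12 and 355 bp, Tpx2, a spindle assembly factor, at 92 bp, and Mad2l1, of the spindle checkpoint, at 219 bp. The transcription factor Foxm1 and the cytokinesis factors Ect2 and Anln followed at 1938, 1238 and 3106 bp. Kif2c, Anapc13, Sgol2 and Spc24 lay between 1715 and 8565 bp. Aurka, the sister kinase of Aurkb, had a Renilla position at 393 bp, while the nearest knockdown positions were 25158 and 25112 bp away. Incenp and Birc5, partners of Aurkb in the passenger complex, had Renilla positions at 41615 and 26131 bp.

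Some replication genes had Sox2 at the start site in a single knockdown list. The Chaf1a.2122 list held a position 13 bp from a start of Cdc45, a helicase cofactor, 139 bp from Mcm10, an initiation factor, and 347 bp from Orc5l, of the origin recognition complex, with no position of the other 2 lists within 10 kb. With Pcna (9025 bp) these were 4 of 34 replication genes, beside 6.05% of all genes in the table. These 4 genes were chosen after their values were seen. The other lists had such genes too, 4 of 50 mitosis genes and 3 of 29 p53 and checkpoint genes. Chaf1a.2122 is the longest list. With lists of equal length, Orc5l and Pcna kept such a position, and Cdc45 and Mcm10 did not. The numbers were then 2 of 34, 4 of 50 and 3 of 29, and the share of all genes at that setting is not given here. In the lists as deposited, 7, 9 and 13 of the 34 replication genes had a position within 10 kb, beside 29.3%, 28.5% and 33.4% of all genes. At equal length the numbers were 7, 9 and 9, beside 26.5%, 28.5% and 28.1% of all genes.

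In the p53 list, Gadd45a and Gadd45b, which are stress and growth arrest genes, had positions of all 3 lists within 126 bp of a start. Mdm2, the ubiquitin ligase of p53, had them at 7209, 7241 and 998 bp (Renilla, Chaf1a.166, Chaf1a.2122). Trp53inp1, Sesn2, Phlda3, Rb1, E2f4, Chek1 and Wrap53 completed the count, with Renilla distances from 22 bp (Trp53inp1) to 9426 bp (Chek1).

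**Figure D4:**
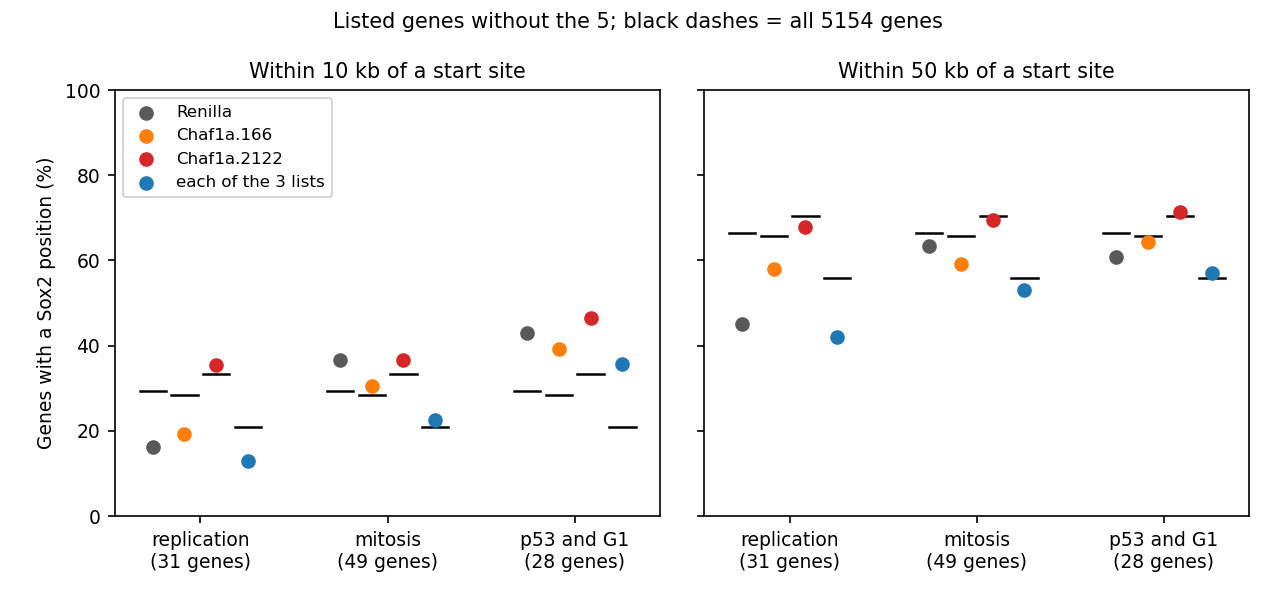
Share of genes (%) of the replication, mitosis, and p53 and G1 lists, without the 5 genes, that have a Sox2 position within 10 kb (left) or 50 kb (right) of a start site, by hairpin and for each of the 3 lists together, with the share of all genes of the table as black dashes. Replication genes lie below the dashes for Renilla and Chaf1a.166 at both distances, and p53 and G1 genes lie above them at 10 kb.

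Sono-seq promoter ratios of the lists had a median of -0.040 for 36 promoters of replication genes (13 higher in CAF-1). It was 0.0096 for 54 promoters of mitosis genes (30 higher) and -0.11 for 29 of p53 and checkpoint genes (8 higher). Over all promoters the median was -0.0093, and 48.2% were higher in CAF-1. The list medians and counts here include the promoters of Mcm2, Mcm3, Top2a, Aurkb and Trp53. Mcm2 was the third lowest of the replication promoters above the median level, after Orc6l (-0.42, 0.134 in CAF-1 and 0.180 in Renilla) and Rrm2 (-0.36), a subunit of ribonucleotide reductase. The highest of them were Rfc1 (0.16), Pola2 (0.12) and Cdc6 (0.10). With the same limit to promoters above the median level, in the mitosis list Mastl (0.60), Kif23 (0.35) and Tpx2 (0.20) were highest and Anapc7 (-0.23), Ccnf (-0.22) and Anapc13 (-0.083) lowest. Under that limit the extremes of the p53 list were Phlda3 (0.49), Bax (0.39) and Gadd45b (0.23) against Bak1 (-0.47), Chek2 (-0.31) and Ccne1 (-0.30). Bax and Bak1, both pro-apoptotic members of the BCL2 family, were thus at opposite ends. Promoters of a lower level that went beyond some of these were left out by the limit. Among them were Top1 (0.37) and Pold3 (0.28) of the replication list, both above Rfc1. Others were Ncapd2 (0.59) and Cdc26 (-0.46) of the mitosis list and Pmaip1 (-0.43) of the p53 list. All of these were named after their values were seen.

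By the number of positions within 50 kb in the 3 lists and the 2 promoter values, the genes nearest to Mcm2 were Dnajc19, Polr3g and Mpi, out of 247 with the same numbers. Those nearest to Mcm3 were Gbas, Tcfap4 and Cnnm3 (of 33), to Top2a Tram1, Utp14b and Zhx3 (of 555), to Aurkb Slc2a3, Tns3 and Sh3bp4 (of 10), and to Trp53 Taf12, Zfp605 and Mlf1ip (of 103). Dnajc19 had promoter values of 0.143 and 0.176, near the 0.138 and 0.173 of Mcm2. Tram1 had 0.139 and 0.137, the values of Top2a to 3 digits.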

How the data were processed

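Sox2 binding positions came from 1 immunoprecipitate against 1 input library per hairpin, and Sono-seq values from 3 libraries per condition that the authors deposited as 1 value per region. The submitters' processing notes name mm9 as the build and list BWA 0.7.8 and Bowtie, but not which step each served. The names of the deposited lists carry the letters WTC; beyond these, the sources used here do not say how positions were called. In the deposited lists, per the file headers, a position carries a binding score, its E-value and q-value, and its fold enrichment over input as an estimate and a lower bound. These are the authors' values and were used within a list only. The deposited Sono-seq values were treated as a score of unknown unit and scaling, and log2 ratios were taken without a pseudocount. No file gives read depth, and a list lacks whatever fell below its own threshold.

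Positions were counted within 50 kb of the start sites in the Sono-seq table, and positions of the 3 lists were joined within 200 bp. Intervals of counts are exact Poisson. In 136 rows a gene symbol had become a date and was recovered from its transcript ID. Promoter sequences are from a table of RefSeq promoters (GRCm38.p6), in which 4 of the 5 genes were matched; Aurkb is named only. The genes and lists were chosen with earlier results of these data known. Named genes are the 5, listed genes with positions of each list within 10 kb, the 3 highest and 3 lowest promoter ratios of a list above the median level, and the 3 most alike genes per member; Mcm5, Aurka, Incenp and Birc5 were added after their values were seen. Joining and counting were tested on simulated data. Python 3.11.15, pandas 2.3.3 and NumPy 2.4.6 were used. The other 49 samples were not analysed here.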

Additional observations from a re-analysis of the deposited data

How the results depend on the processing

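No paired analysis was possible because neither readout has replicate values, with 1 Sox2 library per hairpin and 1 pooled Sono-seq value per condition. Leaving out replicates could therefore not be run. A false discovery rate below 0.001 could remove no position, since the largest in any list was 0.000644 (Chaf1a.166). A window of 10 kb lowered the positions near the 5 genes to 6 (Renilla), 7 (Chaf1a.166) and 6 (Chaf1a.2122), and one of 100 kb raised them to 21, 20 and 25. An enrichment lower bound of at least 2 left 4, 8 and 9 positions near the 5 genes and 1 site of all 3 lists. Of the whole lists it left 11545 of 17681 (Renilla), 10629 of 15888 (Chaf1a.166) and 11071 of 19319 (Chaf1a.2122). Sites of all 3 lists over the whole series are not given here at that bound. Within 10 kb, positions lay near 7 (Renilla), 9 (Chaf1a.166) and 13 (Chaf1a.2122) replication genes, 19, 16 and 19 mitosis genes, and 13, 12 and 14 p53 and checkpoint genes. The enhancer median turned to -0.016 with both conditions scaled to the same median, -0.094 in regions above the median level, -0.017 without Mcm2, -0.016 without Aurkb and -0.016 without Trp53. The promoter median stayed below 0 in each alternative run. Leaving out 1 gene could not turn its sign, since 4 of the 5 ratios were below 0. The number of sites of all 3 lists ranged from 7 to 9 when the joining distance went from 100 to 1000 bp, and was 7 with lists of equal length.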

Other observations

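Most of the 42 positions ranked below the median of their own list. Above the median of their own list by score stood 5 of 14 (Renilla), 3 of 13 (Chaf1a.166) and 8 of 15 (Chaf1a.2122), and at or above it by enrichment 3, 5 and 6.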
